A study of Canis lupus familiaris with 28 samples.

Results

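The comparison described here is between confluent cells carrying shRNAs against both p190A and p190B and confluent cells carrying the p190B shRNA alone, all of experiment 1. Its members are 4 libraries of the 28 in the series, 2 with both shRNAs and 2 with the p190B shRNA, chosen by title and genotype label. All are TR-T10, a dog cell line whose introduced constructs are under a tetracycline repressor, per the labels. Knockdown was induced with 4 µg/ml doxycycline for 3 days before cells were replated for 3 to 5 days, per the labels' protocols. The double knockdown line was made from the p190B knockdown line by a second retroviral transduction, with the p190A shRNA, and hygromycin selection. The p190B line had been selected in puromycin. Both sides of the comparison therefore carry the p190B shRNA, and they differ by the p190A shRNA together with the second transduction and the hygromycin selection, whose parts cannot be told apart.

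p190A (ARHGAP35) and p190B (ARHGAP5) are related GTPase-activating proteins that act on the actin cytoskeleton. In cells that touch their neighbours the Hippo kinases LATS1 and LATS2 keep the coactivator YAP1 out of the nucleus. YAP1 raises transcription of growth genes together with TEAD factors. The series as a whole asks how the p190 proteins bear on this contact response, and the comparison here asks what the p190A shRNA adds in cells that already carry the p190B shRNA.

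Other groups of experiment 1 were used beside the 4 libraries: confluent wild type and confluent cells that had only the p190A shRNA, and the 4 cell types at sub-confluent density, with 2 libraries each. Experiment 2 supplied 3 confluent wild-type and 3 confluent double knockdown libraries. Its cells labelled YAP5SA and its double knockdown cells with YAP5SA+S94A entered only the filter, scaling and spread of the experiment 2 fit. The labels do not say whether wild-type cells received doxycycline, or that replicates are separate cultures, so the spread behind each p-value may be a technical one. Reads assigned to single transcripts numbered 12165555 and 15390387 with both shRNAs and 12110040 and 12770060 with the p190B shRNA. The replicates of sub-confluent p190A cells differed most, with a median absolute log2 difference of 0.284 against 0.154 to 0.215 in the other 7 groups, and this value does not show which of the 2 deviates. They enter the comparison through the shared estimate of the spread and the filter on low counts, and without replicate 1 or 2 of that group 4900 or 4901 transcripts were called in place of 4380. The count tables list Ensembl transcript identifiers without gene names, and none of the 29884 matched the reference gene table. The targeted genes and the markers of the cell type could therefore not be read as checks of the labels, and transcripts are given by identifier.

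A large share of transcripts differed between confluent cells with both shRNAs and with the p190B shRNA alone, in both directions. The part of the p190A shRNA in this cannot be told apart from the second transduction and the hygromycin selection. Of 12845 transcripts tested, 2126 (16.6%) were higher and 2254 (17.5%) lower with both shRNAs than with the p190B shRNA alone, 34.1% in all (edgeR quasi-likelihood test, Benjamini-Hochberg adjusted p under 0.05). Those at least 2-fold higher numbered 597 (4.65%) and those at least 2-fold lower 873 (6.80%). The decreases reached further: 257 called transcripts were over 4-fold lower and 105 over 4-fold higher, while below 1.5-fold there were 660 lower and 801 higher. The median log2 fold change was 0.70 among transcripts called higher, -0.82 among those called lower and -0.03 over all tested. In RNA from whole cultures, a change in how many cells express a transcript and a change in its amount per cell cannot be told apart.

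Level and direction went together. Levels are in CPM, the usual per-library scaling of counts, computed here from the reads assigned to transcripts and adjusted with TMM factors. Among the 3212 transcripts with the lowest mean level in the 4 libraries, at most 2.10 log2 CPM, 183 were called higher and 412 lower. Among the 3211 with the highest level, at least 6.14 log2 CPM, 844 were higher and 658 lower. The share called rose from 18.5% in the lowest of 4 equal level classes to 46.8% in the highest. Median log2 fold changes of called transcripts were 1.64 (higher) and -1.86 (lower) in the lowest class. In the highest class they were 0.57 and -0.57. Smaller changes can be called at higher counts, and the part of this in the rise was not tested. Counted in reads, transcripts called lower held 26.5% and 27.5% of transcript reads in the p190B libraries and 16.02% and 16.73% in the double knockdown libraries. Transcripts called higher held 17.3% and 16.9% in the p190B libraries and 28.1% and 27.5% in the double knockdown libraries. These shares describe sets chosen on the same libraries. Confluent wild-type libraries, which were not part of that contrast, were near the p190B libraries, with 25.03% and 25.88% of reads in the lowered set and 18.3% and 18.4% in the raised set. The count of 4380 called transcripts fell to 2485 without double knockdown replicate 1 and to 2587 without p190B replicate 2. In both fits the remaining library of the group was assumed to vary like the other groups. Entries aligned to several places, which enter no transcript count, made up 27.9% and 28.4% of all counted entries in the double knockdown libraries and 25.2% and 25.6% in the p190B libraries, and the part of this difference in the result was not tested.

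**Figure D1:**
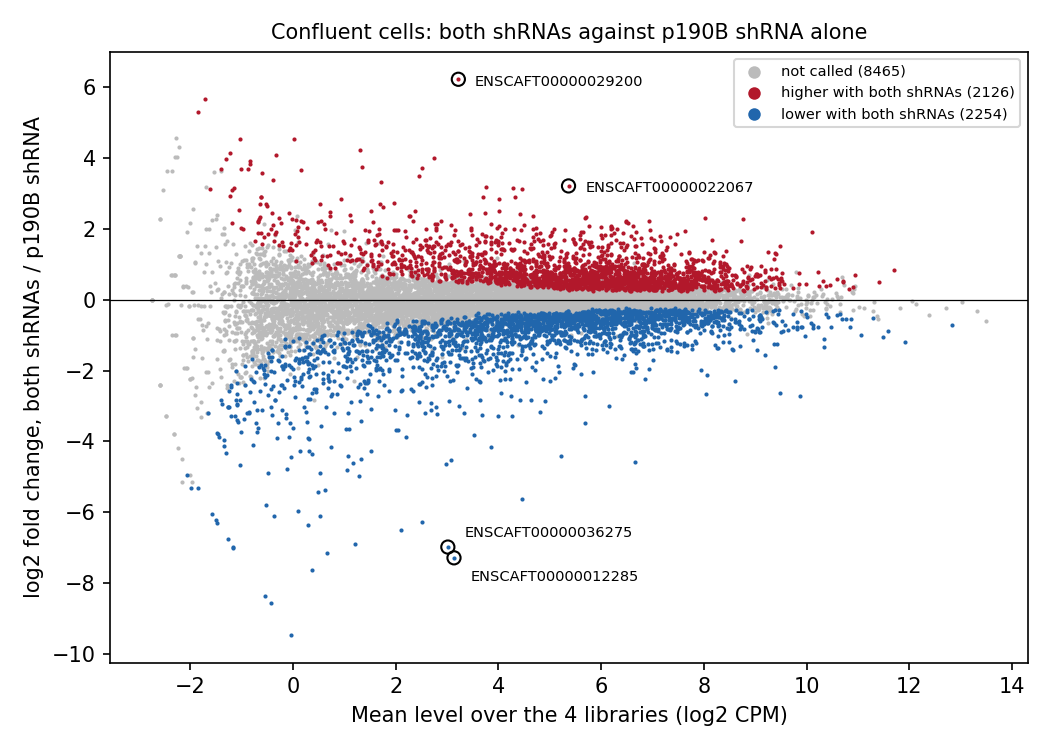
Log2 fold change between confluent cells with both shRNAs and with the p190B shRNA alone (vertical) against mean level over the 4 libraries in log2 CPM (horizontal), 1 point per tested transcript. Red points are the 2126 transcripts called higher, blue the 2254 called lower and grey the 8465 not called. The 4 circled transcripts are those described by identifier, and points far below zero outnumber those far above it.

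Agreement among the 4 libraries was used to choose which transcripts to print. They had to be called, reach a mean of 3 log2 CPM, show no overlap between the groups and stay called when any of the 4 libraries was left out. This left 873 higher and 783 lower transcripts, and the 2 with the largest change in each direction are given. Their statistics in this comparison describe the choice, and their levels in the other libraries took no part in it. Differences between this change and another contain the values that chose them, so these are given for the 4 transcripts as descriptions, with no test.

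Transcript ENSCAFT00000029200 was low in every confluent cell type of experiment 1 but the double knockdown. Its level was 1.009 and 1.007 CPM in the p190B libraries (12 and 13 counts) and 90.4 and 62.0 CPM in the double knockdown libraries. The groups lay far apart, with a log2 fold change of 6.22 (SE 0.87, edgeR adjusted p = 1.7e-04). Confluent wild-type libraries held 1.37 and 1.30 CPM and p190A libraries 4.96 and 5.71 CPM, so the confluent double knockdown libraries were above every other confluent library of experiment 1. In sub-confluent cells it was at 4.456 and 6.6 CPM with the p190B shRNA and 76.3 and 133 CPM with both, a log2 fold change of 4.24 (SE 0.70, edgeR adjusted p = 5.7e-04). The sub-confluent p190A libraries lay far apart, at 6.12 CPM in replicate 1 and 48.2 CPM in replicate 2.

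Transcript ENSCAFT00000022067 stood at a level of its own in each confluent cell type. It was at 12.4 and 14.5 CPM in the p190B libraries and 118 and 132 CPM in the double knockdown libraries, a log2 fold change of 3.21 (SE 0.44, edgeR adjusted p = 1.5e-04). The order at confluence was wild type at 3.83 and 4.72 CPM, the p190B shRNA, the p190A shRNA at 28.5 and 40.7 CPM, and both shRNAs, with no overlap between neighbours in that order. The p190A shRNA in wild-type cells gave a log2 fold change of 3.00 (SE 0.51, edgeR adjusted p = 0.0015). The change was thus 0.21 (SE 0.68) larger in the p190B background than in the wild-type background on the log2 scale. Sub-confluent levels were higher in each cell type, at 61.6 and 87.8 CPM with the p190B shRNA and 321 and 460 CPM with both.

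Transcript ENSCAFT00000012285 fell from its highest level among the groups used here to near zero. The p190B libraries held 102 and 112 CPM (1208 and 1439 counts) and the double knockdown libraries 0.329 and 0.946 CPM (4 and 15 counts). The log2 fold change was -7.29 (SE 0.54, edgeR adjusted p = 1.7e-06). From summed counts the p190B level was 154 times that of the double knockdown, with an exact 95% interval of 98.6 to 257 that covers counting error only. Wild-type libraries held 41.1 and 57.9 CPM and p190A libraries 21.2 and 27.8 CPM. With the p190A shRNA in wild-type cells its log2 fold change was -1.02 (SE 0.36, edgeR adjusted p = 0.081), which was not a call. Of 24 alternative fits, 19 gave no call either, among them DESeq2 (DESeq2 adjusted p = 0.23). The other 5 included the fit of only confluent wild-type and p190A libraries (edgeR adjusted p = 0.011). They also included the fit with all low-count transcripts kept (edgeR adjusted p = 1.1e-07). With a library left out the log2 fold change was -1.242 to -0.753.

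Transcript ENSCAFT00000036275 was near zero in experiment 1 with both shRNAs and not with either alone. It stood at 88.7 and 76.2 CPM in the p190B libraries and 0.659 and 0.631 CPM (8 and 10 counts) in the double knockdown libraries, a log2 fold change of -6.98 (SE 0.31, edgeR adjusted p = 4.7e-08). Wild-type libraries held 49.4 and 51.5 CPM and p190A libraries 61.9 and 67.6 CPM, so every other confluent library of experiment 1 was above 49 CPM. Sub-confluent cells showed the same loss, from 83.7 and 62.8 CPM with the p190B shRNA to 0.587 and 0.176 CPM with both. The sub-confluent double knockdown values rest on 8 and 3 counts, and the p190B level was 200 times higher by summed counts (exact 95% interval 111 to 401, counting error only).

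**Figure D2:**
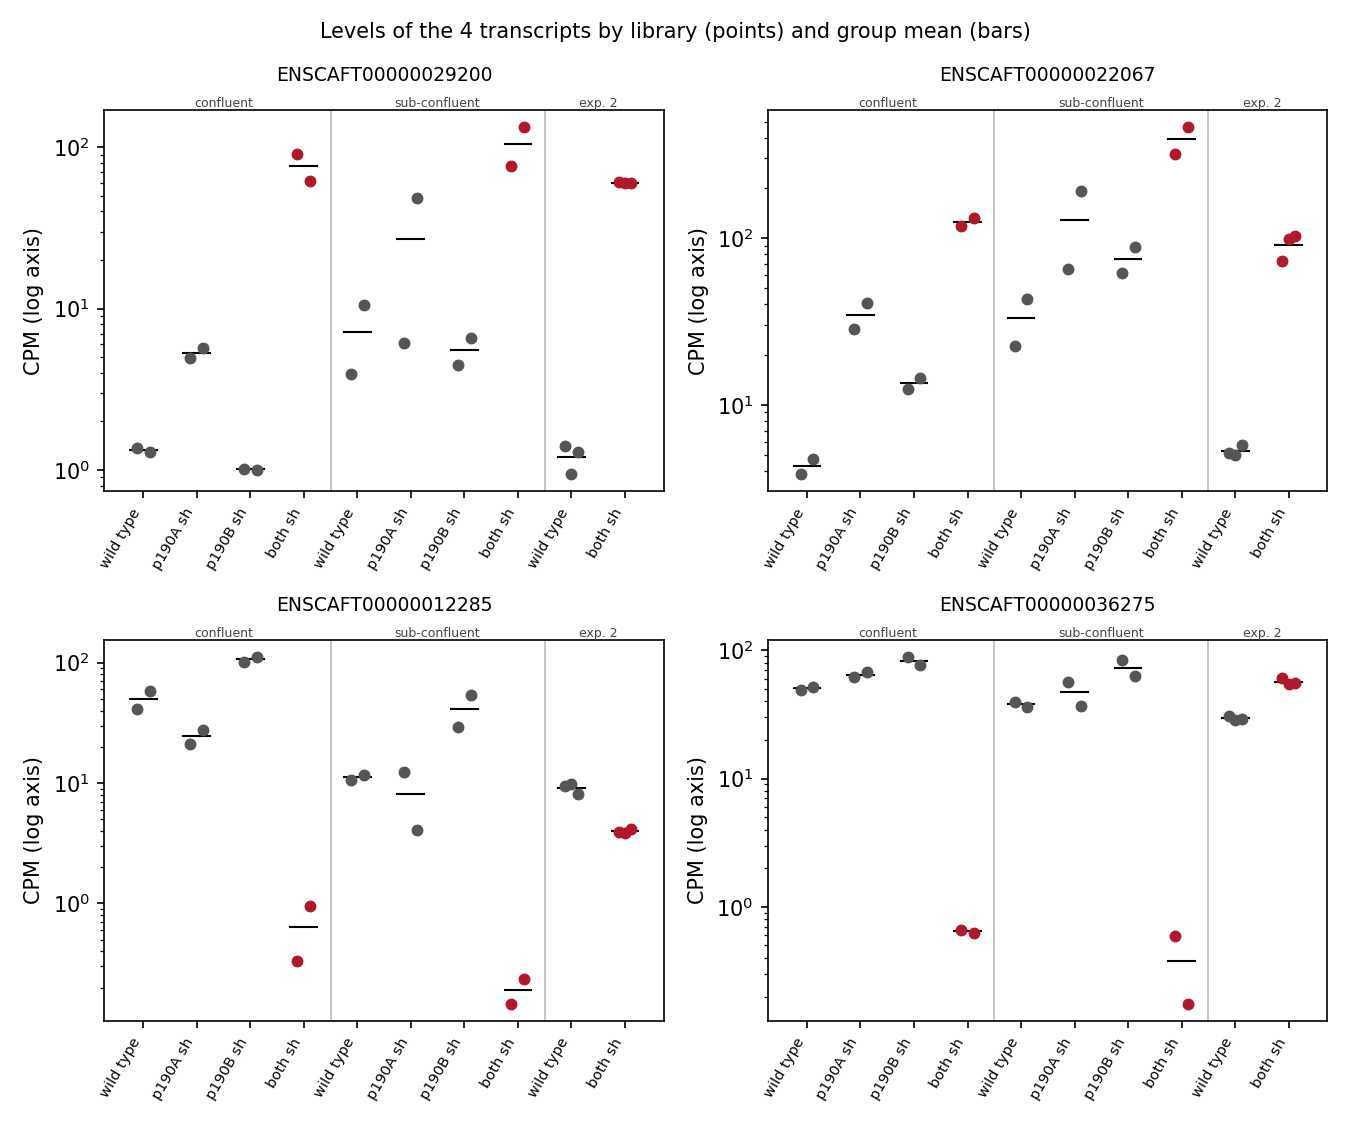
CPM on a log axis for the 4 transcripts in each library (points, red for cells with both shRNAs) with the group mean as a bar, for confluent and sub-confluent groups of experiment 1 and for wild-type and double knockdown cells of experiment 2. ENSCAFT00000036275 sits under 0.7 CPM in the 4 double knockdown libraries of experiment 1 and between 54.6 and 61.1 CPM in the 3 of experiment 2.

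The same 2 cell types were also compared in sub-confluent culture, in libraries that the confluent comparison does not use. A difference between the lines other than the p190A shRNA could appear at both densities. Overlap between the densities therefore cannot tell such a difference apart from the shRNA. There 31.6% of transcripts were called, with 1966 higher (15.3%) and 2092 lower (16.3%) with both shRNAs than with the p190B shRNA. Of the 2126 transcripts raised at confluence, 1280 (60.2%) were also raised in sub-confluent cells and 13 were lowered. These 1280 made up 65.1% of the sub-confluent raised list. Of the 2254 lowered at confluence, 1411 (62.6%) were also lowered and 2 were raised, and they made up 67.4% of the sub-confluent lowered list. The median sub-confluent log2 fold change was 0.52 for transcripts raised at confluence and -0.69 for those lowered, against 0.00 over all tested. The sub-confluent count of 4058 became 2257 without double knockdown replicate 2 and 2382 without p190B replicate 1.

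Whether transcripts responded differently at the 2 densities was tested as a difference between the changes, and 118 transcripts (0.919%) passed, 101 (0.786%) with a more positive change at confluence and 17 (0.132%) with a more negative one. The median change of the 101 on the log2 scale was 1.34 in confluent and -0.02 in sub-confluent cells, the values by which they were chosen. Of these, 81 were called higher at confluence, and in sub-confluent cells 21 were called higher and 33 lower. These calls come from the same 2 changes whose difference chose the 101, so they describe the choice. Over all tested transcripts 16.6% were called higher at confluence, and 15.3% higher and 16.3% lower in sub-confluent cells. Transcripts that wild-type cells lower at confluence made up 48 of the 101, against 457 of all 12845 (3.56%). The count of 118 rests on single libraries. Without confluent double knockdown replicates 1 and 2 it became 19 and 65, and without confluent p190B replicates 1 and 2 it became 68 and 2. Without sub-confluent p190B replicates 1 and 2 it became 21 and 19. It was 77 without either confluent p190A library and 236 without either sub-confluent p190A library. These groups are not part of the difference, but leaving out a library changes the shared spread and the number of transcripts tested. A replicate block within density gave 453, and the count was 294 with DESeq2 and 554 without the filter on low counts.

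**Figure D3:**
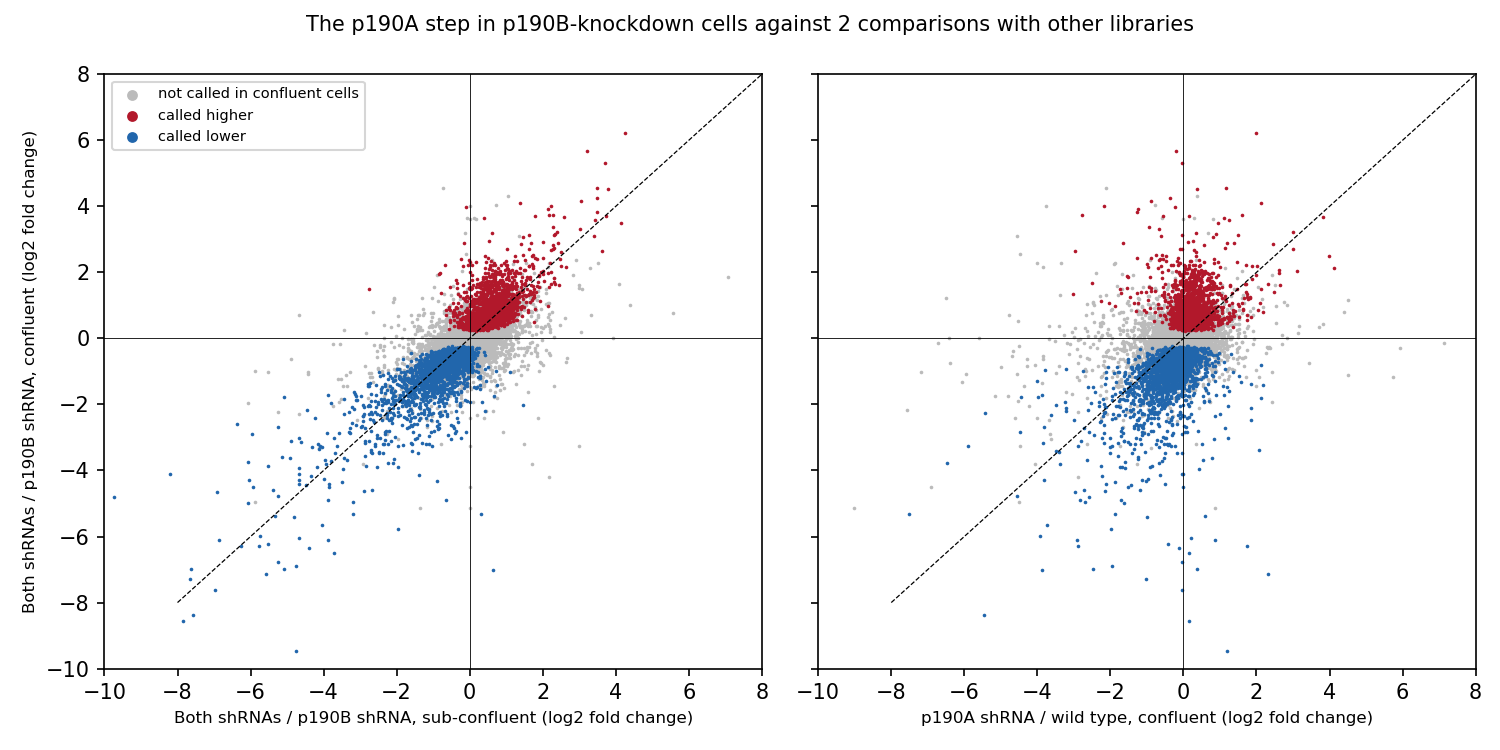
Log2 fold change of both shRNAs over the p190B shRNA in confluent cells (vertical) against the same change in sub-confluent cells (left) and against the p190A shRNA over wild type in confluent cells (right), 1 point per tested transcript, with red and blue for transcripts called higher and lower at confluence. Dashed lines mark equal change. On the right the medians were 0.70 (vertical) and 0.20 (horizontal) for red points and -0.82 and -0.27 for blue points, and the vertical values are those by which the colours were chosen.

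Cells with only the p190A shRNA were also compared with wild type, which sets the p190A change beside that in cells with the p190B shRNA. Wild-type cells are labelled without an shRNA, and their doxycycline is not stated. The p190B cells already carried an induced shRNA. A difference between the backgrounds therefore holds the p190B shRNA together with such differences between the lines, which cannot be told apart. Confluent p190A knockdown cells had 836 transcripts (6.51%) higher and 892 (6.94%) lower than wild type, from libraries not used in the comparison of both shRNAs with the p190B shRNA. Of the 2126 transcripts raised in the p190B background, 360 (16.9%) were raised in the wild-type background and 29 were lowered. Seen from the shorter list, 43.1% of the 836 were raised in both. Of the 2254 lowered in the p190B background, 500 (22.2%) were lowered in the wild-type background and 60 were raised, and the 500 were 56.1% of the 892. Transcripts raised in the p190B background had a median log2 fold change of 0.70 there and 0.20 in the wild-type background. For those lowered the medians were -0.82 and -0.27. The first median of each pair comes from the libraries that chose the list.

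The difference between the backgrounds was tested for each transcript and passed for 1293 (10.1%), 653 (5.08%) more positive in the p190B background and 640 (4.98%) more negative. As a description, the log2 difference was -6.27 (SE 0.67) for ENSCAFT00000012285, -7.34 (SE 0.38) for ENSCAFT00000036275 and 4.23 (SE 1.53) for ENSCAFT00000029200. The p190A count of 1728 became 2724, and the count of 1293 became 2601, under a replicate block within density. Leaving out wild-type replicate 1 or 2 gave a p190A count of 886 or 710, and leaving out p190A replicate 1 or 2 gave 810 or 737. The count of 1293 became 717 or 712 when wild-type replicate 1 or 2 was dropped, and 615 or 786 when p190A replicate 1 or 2 was. Dropping p190B replicate 1 or 2 gave 857 or 786, and dropping double knockdown replicate 1 or 2 gave 659 or 816. With the fit restricted to the groups compared, the p190A count was 2650 and the difference 2374, and with no filter on low counts the difference was 2004.

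Of the transcripts that follow cell contact in wild-type cells, more than the background share differed between both shRNAs and the p190B shRNA. Wild-type cells had 457 transcripts (3.56%) at least 2-fold lower and 780 (6.07%) at least 2-fold higher at confluence than in sub-confluent culture, in libraries that the comparison does not use. Of the 457, 273 (59.7%) were higher and 11 lower with both shRNAs than with the p190B shRNA at confluence, with a median log2 fold change of 1.19. Of the 780, 416 (53.3%) fell and 5 rose, and their median was -1.06. Over all tested transcripts 16.6% rose and 17.5% fell, and the median was -0.03.

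The level of these lists in each library shows where the cell types stood. The contact-lowered list had a median level of 3.01 and 2.85 log2 CPM in the confluent p190B libraries and 4.18 and 4.06 log2 CPM in the double knockdown libraries. Confluent wild-type libraries were at 3.09 and 2.96 and sub-confluent wild-type libraries at 4.28 and 4.31 log2 CPM, the values by which the list was chosen. Confluent p190B cells thus sat with confluent wild type, and confluent double knockdown cells just below sub-confluent wild type. The contact-raised list was at 2.63 and 2.91 log2 CPM with the p190B shRNA and 1.48 and 1.89 log2 CPM with both, against 3.13 and 3.03 in confluent and 1.58 and 1.51 in sub-confluent wild type. With the p190A shRNA alone the lists were at 3.24 and 3.24 (contact-lowered) and 2.62 and 2.52 log2 CPM (contact-raised). The median of all tested transcripts was between 4.44 and 4.50 log2 CPM in every library.

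**Figure D4:**
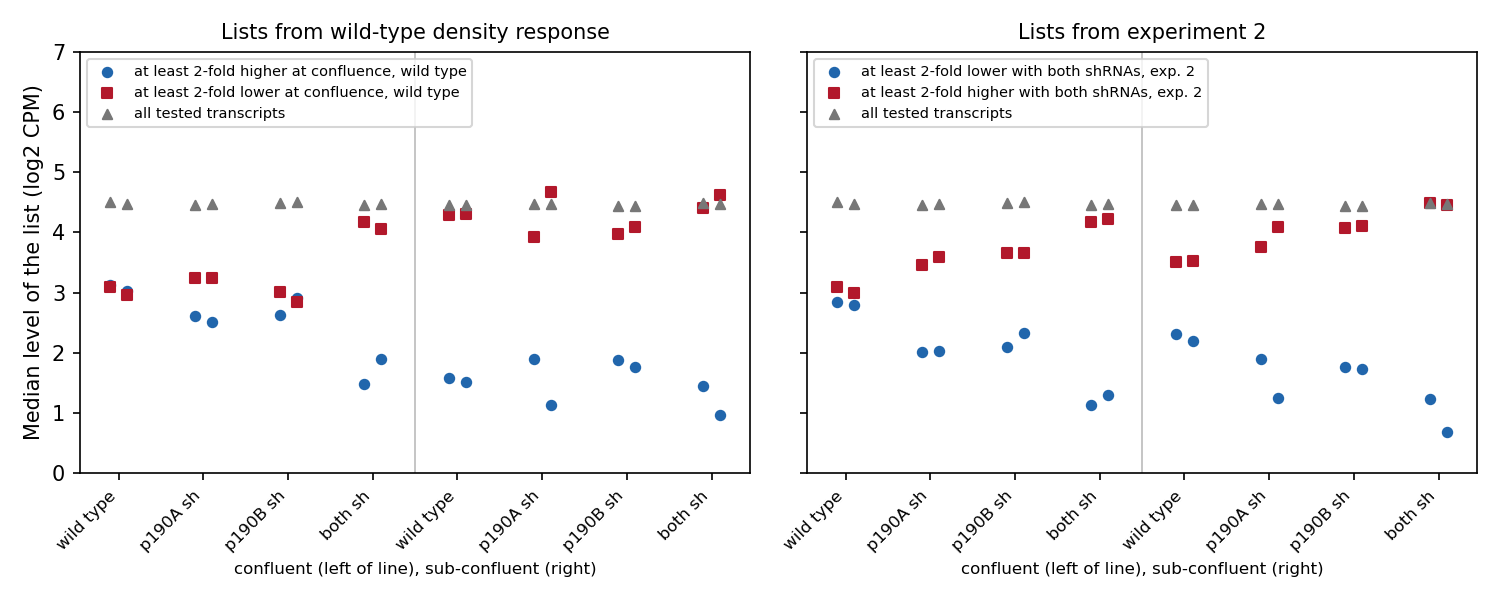
Median level in log2 CPM of each list in each library of experiment 1, by cell type, with confluent groups left and sub-confluent groups right of the line. The left panel follows the 780 transcripts at least 2-fold higher and the 457 at least 2-fold lower at confluence in wild type, the right panel the lists from experiment 2, and triangles mark all tested transcripts. Squares rise and circles fall from the p190B shRNA to both shRNAs at confluence, in each library, while triangles stay level.

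Experiment 2 compared double knockdown with wild-type cells at confluence in other libraries, and gave lists of transcripts at least 2-fold higher or lower (4.87% and 8.44% of those tested there). Of the 601 raised ones tested in both experiments, 243 (40.4%) were higher and 43 lower with both shRNAs than with the p190B shRNA, and the median log2 fold change of the 601 was 0.47. Of the 940 lowered ones, 452 (48.1%) fell and 24 rose, and their median was -0.97. Among all tested transcripts 16.6% rose and 17.5% fell, with a median of -0.03. The raised list stood at 3.09 and 2.99 log2 CPM in confluent wild type, 3.46 and 3.59 with the p190A shRNA, 3.66 and 3.66 with the p190B shRNA and 4.17 and 4.21 with both. The lowered list stood at 2.84 and 2.80 log2 CPM in wild type, 2.02 and 2.03 with the p190A shRNA, 2.09 and 2.33 with the p190B shRNA and 1.14 and 1.29 with both. In both lists the single knockdowns lay near each other, between wild type and double knockdown. The lists are not separate from those of cell contact: 110 of the 457 contact-lowered transcripts were in the experiment 2 raised list, and 277 of the 780 contact-raised ones in its lowered list.

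Lists from the p190A shRNA in wild-type cells were counted in the same way. Of 169 transcripts (1.32% of all tested) that it raised at least 2-fold there, 73 (43.2%) were higher and 11 (6.51%) lower with both shRNAs than with the p190B shRNA, with a median log2 fold change of 0.45. Of 428 (3.33% of all tested) that it lowered, 224 (52.3%) fell and 17 (3.97%) rose, and their median was -1.04. Over all tested transcripts 16.6% rose and 17.5% fell, and the median was -0.03. The p190B libraries lay between the wild-type and p190A libraries, by whose difference the lists were chosen. The lowered list was at 3.19 and 3.20 log2 CPM in wild type, 2.01 and 2.31 with the p190B shRNA, 1.28 and 1.37 with the p190A shRNA and 1.03 and 1.26 with both. Lists from the sub-confluent comparison had medians of 1.06 (434 raised, 3.38%) and -1.26 (786 lowered, 6.12%) at confluence.

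Experiment 2 holds no cells with the p190B shRNA alone, so the changes were set beside its double knockdown against wild type. That comparison also holds the p190B shRNA, so an opposite or absent call there is not a failed repeat. Of 2112 transcripts called higher at confluence and tested there, 1584 (75%) were higher and 226 lower with both shRNAs than in wild type. Of all transcripts tested in experiment 2, 35.2% were higher and 35.1% lower. Of 2218 lowered, 1548 (69.8%) were lower and 269 higher. Transcripts at least 2-fold lower at both densities numbered 493. Of the 476 tested in experiment 2, 370 were lower and 43 higher there. Both transcripts printed as raised were raised in experiment 2 as well. ENSCAFT00000029200 went from 1.402, 0.943 and 1.29 CPM in wild type to 60.9, 59.7 and 59.7 CPM, and ENSCAFT00000022067 from 5.10, 5.00 and 5.75 CPM to 72.5, 99.1 and 102 CPM.

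The printed transcripts that fell did not repeat losses of that size. ENSCAFT00000036275 was at 30.6, 28.65 and 29.4 CPM in wild-type and 61.1, 54.6 and 55.7 CPM in double knockdown cells of experiment 2, so it was higher there with both shRNAs. In a joint fit of confluent wild-type and double knockdown cells of both experiments, added after these values were seen, its log2 change from wild type was -6.28 (SE 0.16) in experiment 1 and 0.94 (SE 0.07) in experiment 2. The difference was -7.23 (SE 0.17). ENSCAFT00000012285 was at 9.37, 9.79 and 8.12 CPM in wild-type and 3.94, 3.85 and 4.11 CPM in double knockdown cells of experiment 2. Its log2 changes from wild type were -6.19 (SE 0.26) and -1.20 (SE 0.18), which differed by -4.99 (SE 0.37). For ENSCAFT00000029200 and ENSCAFT00000022067 the differences were 0.21 (SE 0.45) and 0.75 (SE 0.31). The joint fit shares the confluent double knockdown libraries with the choice of these transcripts, so its differences are not tested. The labels do not say whether both experiments used the same double knockdown cells.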

How the data were processed

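Messenger RNA was sequenced as single reads from TruSeq libraries, per the labels' protocols. The authors deposited whole-number counts of reads per Ensembl dog transcript for each sample, with no normalization. STAR 2.3.1n, HTSeq 0.6.0, DESeq2 1.4.5 and build CanFam3.1 appear in the submitters' processing notes, without roles. The sources used here do not give the strand setting of the counting. The 5 summary rows entered neither library sizes nor tests. They held 21.2% to 22.1% (ambiguous between transcripts) and 22.3% to 23.2% (outside any transcript) of singly aligned reads in the 4 libraries compared, so overlapping transcripts are measured from part of their reads.

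The 16 libraries of experiment 1 were fitted together with edgeR 4.0.16 in R 4.3.3 (filterByExpr, TMM scaling, robust quasi-likelihood fit of 8 group means, Benjamini-Hochberg adjustment, calls at adjusted p under 0.05). Experiment 2 was fitted apart with its 11 distinct libraries, since the files of YAP5SA replicates 1 and 2 were identical. Standard errors were derived from the F statistic. The common biological coefficient of variation of experiment 1 was 0.128. Lists were followed by counts and medians, with no test. Scripts were tested on simulated data. Deviations of same-numbered libraries from their group means correlated in each pair of groups within a density. Across transcripts r was 0.206 to 0.537 in confluent and 0.142 to 0.366 in sub-confluent groups, and -0.200 to 0.0259 between densities. The value of 0.537 was between the 2 groups compared. Only the alternative with a replicate block within density took replicate numbers to pair libraries in this way. The main fit had no block, so its counts and p-values ignore such pairing. With that block 5651 transcripts were called in place of 4380, and the density difference was 453 in place of 118.

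Alternatives were RLE size factors, DESeq2 1.42.0, limma-voom 3.58.1, no filter, smaller fits, replicate blocks and each library left out. Printed transcripts were the 2 with the largest change in each direction among those called, with a mean of at least 3 log2 CPM, no overlap between the groups and a call without each of the 4 libraries. The comparison, lists and rule were chosen with earlier results of these data known. Gene lists and sequences were not used here because no identifier matched a gene name.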

Additional observations from a re-analysis of the deposited data

Results flagged for a closer look

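Responses that differed between groups by a test of the difference were as follows. The change from the p190B shRNA to both shRNAs differed between confluent and sub-confluent cells for 118 transcripts. At confluence it differed from the change from wild type to the p190A shRNA for 1293 transcripts. The values of printed transcripts are descriptions with no test, because the transcripts were chosen on libraries that enter each difference. ENSCAFT00000012285 differed between the backgrounds by -6.27 on the log2 scale, and between the double knockdowns of experiments 1 and 2, each against its own wild type, by -4.99. ENSCAFT00000036275 differed between the backgrounds by -7.34 and between the experiments by -7.23.

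Outside the transcript counts, the share of entries aligned to several places was 28.2% ± 0.339 (SD, n = 2) in confluent cells with both shRNAs and 25.4% ± 0.299 (SD, n = 2) in those with the p190B shRNA. Confluent wild-type and p190A libraries were at 26.3% ± 0.317 and 26.0% ± 0.454 (SD, n = 2 each). Sub-confluent cells gave 29.8% ± 1.25 with both shRNAs and 27.1% ± 0.518 with the p190B shRNA (SD, n = 2 each). In experiment 2 the share was 27.4% ± 0.153 with both shRNAs and 25.7% ± 0.212 in wild type (SD, n = 3 each).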

How the results depend on the processing

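The number of transcripts called between both shRNAs and the p190B shRNA stayed between 4166 and 5651 under the other normalization, tools, filter, fits and replicate blocks (5651 with the replicate block within density), and between 2485 and 4901 with a library left out. The sub-confluent count ranged from 2257 to 4599 with a library left out. The p190A count in wild-type cells was 2650 with the fit restricted to the groups compared, 2724 with the replicate block within density and 710 to 2169 with a library left out. The density difference was 294 with DESeq2, 554 without the filter, 453 with the replicate block within density and 2 to 236 with a library left out. The background difference was 2004 without the filter, 2374 with the fit restricted to the groups compared, which are all the confluent libraries, 2601 with the replicate block within density and 615 to 1929 with a library left out. The block changed no call of a printed transcript. List medians kept their sign throughout. With no 2-fold minimum they were 0.272 and -0.346 (experiment 2 raised and lowered), 0.291 and -0.638 (raised and lowered by p190A), -0.630 and 0.492 (contact-raised and contact-lowered) and 0.562 and -0.632 (sub-confluent raised and lowered). The experiment 2 raised median was 0.523 with the fit so restricted and 0.475 to 0.552 with a library left out, and the sub-confluent raised median 1.015 to 1.106. Differences of printed transcripts changed sign for some left-out libraries: between backgrounds for ENSCAFT00000022067 (-0.027 to 0.489), between densities for ENSCAFT00000012285 (-0.625 to 0.864) and ENSCAFT00000036275 (-0.025 to 1.664), and between experiments for ENSCAFT00000029200 (-0.067 to 0.457). The 4 printed changes kept direction and call in each of the 24 alternatives, of which the 4 that leave out a compared library were part of their choice. With 2 libraries a group and 8 residual degrees of freedom, small changes of low transcripts could not be detected at this depth.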

Other observations

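Some transcripts had no counts on one side of the comparison. Of 28 tested transcripts with no count in either confluent double knockdown library, 12 were called lower. Of 15 with no count in either confluent p190B library, 2 were called higher. Among all tested transcripts, 17.5% were called lower and 16.6% higher. The direction of the 12 and 2 calls was fixed by the choice, since a transcript without counts in a group cannot be higher there. Transcripts with a fitted decrease of at least 16-fold at both densities numbered 31, of which 8 had no count in either confluent double knockdown library, so that their fitted fold depends on the prior count. Of the 27 tested in experiment 2, 21 were lower with both shRNAs than in wild type there and 3 were higher, ENSCAFT00000036275 among the 3 (edgeR adjusted p under 0.05). All transcripts tested there were lower in 35.1% and higher in 35.2% of cases.

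The sub-confluent p190A libraries differed from each other. ENSCAFT00000022067 was at 65.1 CPM in replicate 1, 192 CPM in replicate 2 and 321 and 460 CPM in sub-confluent double knockdown cells. The experiment 2 lowered list had a median of 1.90 log2 CPM in replicate 1 and 1.26 log2 CPM in replicate 2, against 1.23 and 0.69 log2 CPM in sub-confluent double knockdown cells.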
